A study of Mus musculus with 12 samples.

Results

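Liver RNA in 8 sugar-fed samples was compared with that in 4 fasted samples. All 12 RNA-sequencing libraries of the series entered the comparison, and 12366 of the 16346 genes in the deposited table reached the mean normalized count of at least 10 that was required for testing. The mice were of the C57BL6J strain and 12 weeks old, and every mouse carried the floxed Med13 allele. Control mice were Med13 fl/fl. MED13-LKO mice also carried a Cre transgene under the albumin promoter, which is active in hepatocytes, so that other liver cells keep Med13. MED13 belongs to the kinase module of Mediator, the large coactivator through which bound transcription factors reach the polymerase. Each genotype gave 2 samples from mice fasted for 16 hours, 2 from mice given normal chow and water with 30% sucrose for 4 hours after the fast, and 2 from mice given chow and water with 30% fructose for the same time. Sucrose is the disaccharide of glucose and fructose.

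The fed mice ate chow and drank sugar, and by the study's methods they were killed later in the day than the fasted mice, so food, sugar and the hour of collection cannot be told apart in what follows. Mice given chow with plain water after the fast were not analysed here. Values are counts divided by a size factor for each library (normalized counts), and fold changes are differences of log2(normalized count + 1), which understate the change of genes with low values. The deposited values summed to 17310000 to 24150000 per library, and the size of 1 read in genes with a single transcript gave 16090000 to 24230000 reads on genes. Med13 RNA ranged from 646.4 to 1055 in the libraries that carry the MED13-LKO label and from 577.6 to 796.3 in control. Its level was thus not lower under that label, with a genotype difference of 0.22 ± 0.116 on the log2 scale (SE, limma, adjusted p = 0.206). The study's immunoblots, which measure protein, showed MED13 almost absent from MED13-LKO livers. Whether the deleted exons are among those counted was not tested. Among the fed libraries, the second control fructose replicate stood nearest to the fasted state. It held the highest fed value in 379 of the 1285 genes called lower (29.5%) and the lowest fed value in 265 of the 1204 called higher (22%), and without it 1259 genes were called higher and 1302 lower.

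Between meals the liver makes glucose from lactate and amino acids and oxidises fatty acids, and the transcription factors FOXO1 and PPAR alpha and the glucagon and glucocorticoid pathways drive the genes that do so. After a meal, insulin inactivates the FOXO factors and activates SREBP-1c, and sugar activates ChREBP. SREBP-1c and ChREBP induce the enzymes that turn sugar into fatty acids. Fructose enters the liver's metabolism through ketohexokinase, past the step that controls the use of glucose.

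Feeding changed the expression of about as many genes in each direction. Of the 12366 genes tested, 2489 passed an adjusted p of 0.05 (20.1%; limma with Benjamini-Hochberg adjustment and genotype as a covariate), of which 1204 were higher in the fed livers (9.74%) and 1285 lower (10.4%). Without the second fasted control replicate these were 801 and 868. The change exceeded 1 on the log2 scale in 171 genes called higher and 137 called lower. The 8 fed and 4 fasted livers did not overlap in 1088 genes (8.8%), 1052 of them among the called genes. The median change over all genes was -0.0063. The labels name separate samples, and nothing in them ties each to a mouse of its own, so the p-values measure the spread between these samples, each of which is called a liver here.

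Among the 12 genes with the largest rise under the naming rule (protein-coding, called, a mean of at least 50, no overlap of the groups, little shared sequence) were Fasn, Elovl6, Acly and Srebf1 of fat synthesis, behind Akap8l, Atp2b2 and Angptl8. Angptl8, whose protein is secreted by the liver and inhibits lipoprotein lipase in muscle and heart after meals, lies at chr9:21835510-21837347 on the plus strand of GRCm38. It stood at 264.1 and 316.5 in the fasted control livers and at 549.1 and 322.9 in the fasted MED13-LKO livers, and at 2589, 4444 and 5360 (lowest, median and highest) in the fed livers. Every fed liver was above every fasted one, as the rule requires, and the rise was 12.2-fold (log2 3.61 ± 0.176, SE, limma, adjusted p = 3.91e-07).

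Fasn, the fatty acid synthase that builds palmitate from acetyl-CoA and malonyl-CoA, lies at chr11:120805846-120824547 on the minus strand. It stood at 1290, 1085, 1050 and 698.7 in the 4 fasted livers and at 5983, 9494 and 35838 (lowest, median, highest) in the fed livers. The naming rule required that the groups not overlap, and the 2 control sucrose livers, at 35838 and 19511, were the highest of the 8. The rise was 11.2-fold (log2 3.48 ± 0.338, adjusted p = 2.91e-05). Elovl6, the elongase that extends palmitate to stearate, was likewise highest in the 2 control sucrose livers. It ranged from 628.2 to 1767 in the fasted livers and from 4123 to 32459 in the fed livers, and rose by 3.13 on the log2 scale (adjusted p = 7.06e-05). Acly, which releases acetyl-CoA from citrate in the cytosol, rose 3.87-fold, and Srebf1, the gene of SREBP-1c, rose 3.3-fold from 1978 to 5172 in the fasted livers to 8034 to 19239 in the fed livers.

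**Figure D1:**
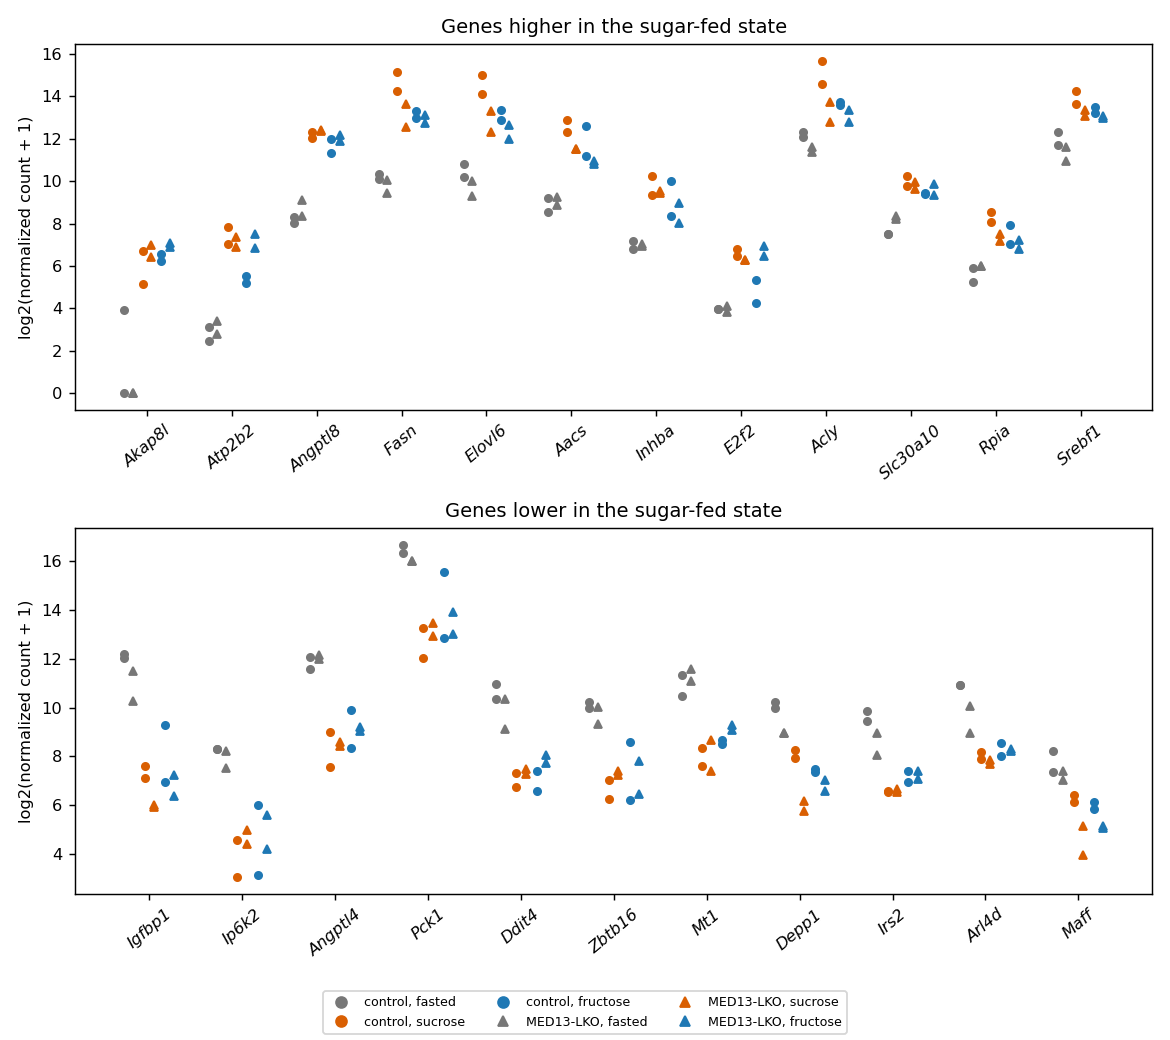
Each point is 1 liver, for the 12 genes with the largest called rise (top) and 11 with the largest called fall (bottom) that met the naming rule. The vertical axis is log2(normalized count + 1), circles are control and triangles MED13-LKO, and grey, orange and blue are fasted, sucrose and fructose. The rule admits only genes in which fed and fasted livers do not overlap, and the plot shows how far apart they lie, as for Fasn at 698.7 to 1290 against 5983 to 35838.

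The other genes of the 12 have various roles. Aacs, which activates acetoacetate for lipid synthesis, rose 6.73-fold, and Slc30a10, a manganese exporter of the cell membrane, rose 3.48-fold. Inhba, which encodes a subunit of activin, rose 4.77-fold, E2f2, a cell cycle transcription factor, rose 4.39-fold, and Rpia, an enzyme of the pentose phosphate pathway, rose 3.34-fold. E2f2 ranged from 13.29 to 16.44 in the fasted and from 17.93 to 123.4 in the fed livers. With a fasted mean of 14.71, it met the naming limit of 50 only through the fed livers. It was called within MED13-LKO livers (2.52, limma, adjusted p = 0.00167) and not within control livers (1.75, adjusted p = 0.182). Atp2b2, a calcium pump of the plasma membrane, went from 4.513 to 9.593 in the fasted livers to 35.9 to 229 in the fed livers and rose by 3.83 ± 0.417 on the log2 scale. Akap8l, which encodes a nuclear anchoring protein, is listed at 0 in 3 fasted livers and at 14.46 in the second fasted control liver, against 35.04 to 134.9 in the fed livers, and its change moved between 3.02 and 8.02 with the pseudocount. Atp2b2 and Akap8l, with fasted means of 6.951 and 3.615, passed the filter on low values only through the fed livers. Akap8l has 13 annotated transcripts, and the deposited value is the sum of what the authors' software assigned to them.

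Under the same rule the largest fall was that of Igfbp1, whose product binds insulin-like growth factors and whose transcription insulin represses through FOXO1. Igfbp1 (chr11:7197782-7202546, plus strand) stood at 4236 and 4703 in the fasted control livers, at 1239 and 2860 in the fasted MED13-LKO livers, and at 59.95, 131.3 and 631.8 in the fed livers. All fed livers lay below all fasted ones, as the rule requires, and the fall was 21.6-fold (log2 -4.43 ± 0.396, limma, adjusted p = 1.81e-05). The highest fed value was that of the second control fructose replicate.

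Pck1, which encodes the phosphoenolpyruvate carboxykinase of gluconeogenesis, fell 7.37-fold (log2 -2.88 ± 0.47, adjusted p = 0.00115). It lies at chr2:173153048-173159273 on the plus strand and ranged from 66143 to 105586 in the fasted livers and from 4235 to 48079 in the fed livers, with a fed median of 9098. The groups did not overlap, which the naming rule required. The second control fructose replicate, at 48079, was again the fed liver nearest to the fasted ones, and the next highest fed value was 15349. Angptl4, which inhibits lipoprotein lipase during fasting, fell 9.18-fold, from 3087 to 4609 in the fasted livers to 187.4 to 946.7 in the fed livers. Angptl4 and Angptl8, 2 secreted proteins that act on the same lipase, thus moved in opposite directions.

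Regulators made up much of the rest. Ddit4, an inhibitor of mTORC1, fell 7.32-fold, Irs2, the insulin receptor substrate whose transcription falls with insulin, fell 4.55-fold, and Depp1, a FOXO target, fell 5.48-fold. Zbtb16, a zinc finger protein induced by glucocorticoids, fell 6.82-fold, and Maff, a small MAF transcription factor, fell 4.09-fold. Mt1, a metallothionein induced by metals and glucocorticoids, fell 6.41-fold, and Arl4d, a small GTPase, fell 4.36-fold. Ip6k2, an inositol hexakisphosphate kinase with 12 annotated transcripts, went from 181.8 to 312.5 in the fasted livers to 7.226 to 62.97 in the fed livers.

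The groups of genes below were taken from 21 lists, whose 409 places held 401 tested genes, and a gene can stand on more than 1 list. The other 8 places were below the filter or not analysed here. For all of them the reference shares are 9.74% of genes called higher and 10.4% called lower.

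**Figure D2:**
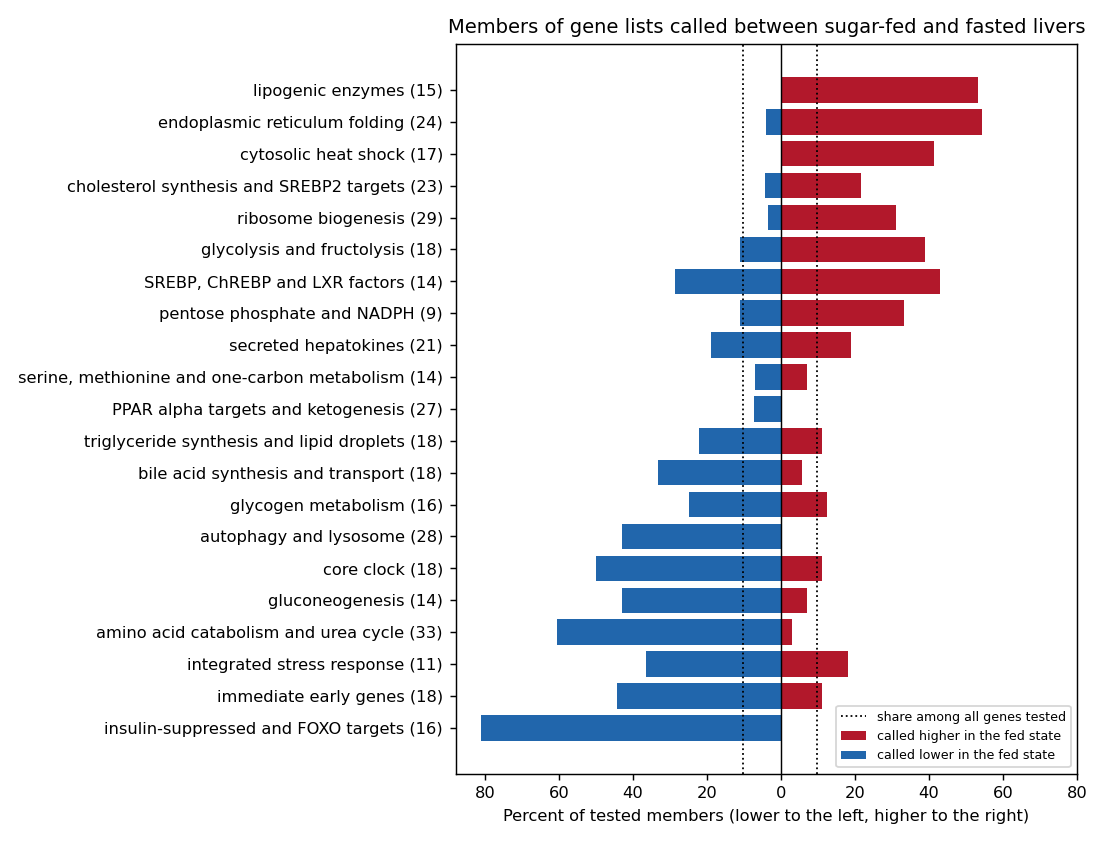
Each row is a list of genes, with the number of its members tested in brackets. Bars give the percent of those members called higher (red, right) or lower (blue, left) in the 8 fed against the 4 fasted livers, and dotted lines mark the shares over all genes, 9.74% and 10.4%. The insulin-suppressed and FOXO list has 81.2% called lower and none called higher, and the lipogenic and endoplasmic reticulum lists have 53.3% and 54.2% called higher.

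Of the 15 lipogenic enzymes and cofactors, 8 rose and none fell, with a median change of 1.04 against -0.0063 over all genes. Beside Fasn, Elovl6 and Acly, these were Acaca, the acetyl-CoA carboxylase that commits carbon to fatty acids (1.68 ± 0.22, adjusted p = 0.000262), Thrsp (1.7) and Mid1ip1 (2.46), whose products promote the activity of that carboxylase, Pnpla3, a lipid droplet hydrolase (2.77 ± 0.668, adjusted p = 0.0113), and Me1, the malic enzyme that supplies NADPH (0.93 ± 0.251, adjusted p = 0.0193). Pnpla3 was low in every fasted liver, at 3.613 to 10.22, and reached 311.9 in the fed livers, and it passed the filter on low values only through the latter. The groups overlapped only at 10.11, the lowest fed value. Me1 overlapped, with up to 3428 in the fasted and 3113 to 14994 in the fed livers, and its call was lost without either fasted control replicate (adjusted p = 0.0717 without replicate 2). More than 10% of the 31-base stretches of Mid1ip1, Acaca and Me1 (22.7%, 33.5% and 36.9%) also occur in another gene, so reads may have been split between them.

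Over both genotypes Scd1 and Acacb moved by like amounts and were not called. Scd1, the desaturase that makes oleate, ranged from 9808 to 40814 in the fasted livers and from 13932 to 167333 in the fed livers, and its change of 0.99 ± 0.338 had an adjusted p of 0.0567. Acacb, the carboxylase isoform that governs fatty acid oxidation, changed by 1.04 ± 0.346 (adjusted p = 0.0512). Within genotypes Acacb was called in control (1.89, limma, adjusted p = 0.0495) and not in MED13-LKO livers (0.18, adjusted p = 0.567). The difference between these responses was not called (adjusted p = 0.397). Scd1 was called in neither genotype (1.11 in control, 0.86 in MED13-LKO livers). With sucrose both genes were called (1.32 each, adjusted p = 0.027 for Scd1 and 0.035 for Acacb). With fructose neither was (0.65 and 0.75). In neither gene did the fasted levels of the genotypes overlap. Fasted Scd1 was 40814 and 25996 in control and 13233 and 9808 in MED13-LKO livers, and fasted Acacb was 461.6 and 310.2 in control and 1265 and 1164 in MED13-LKO livers.

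Among the 14 genes of the SREBP, ChREBP and LXR factors and their partners, 6 rose and 4 fell. Srebf1 and Bhlhe40, a repressor that also belongs to the clock, rose most, and Bhlhe40 (1.18 ± 0.0928, adjusted p = 8.07e-06) went from 1264 to 1939 in the fasted livers to 2646 to 4038 in the fed livers. Mlx, the obligate partner of ChREBP, rose by 0.48 without overlap of the groups. Mlxipl, the gene of ChREBP itself, rose by only 0.33 ± 0.108 (adjusted p = 0.0468) and was not called when any of 8 libraries was left out, with adjusted p as high as 0.19. Nor was it called by limma with the replicate number as a block, no filter on low values or no genotype covariate (adjusted p = 0.0599, 0.0558 and 0.15). Its change was 0.55 in control (adjusted p = 0.0451) and 0.11 in MED13-LKO livers (adjusted p = 0.617). Mlxipl has 10 annotated transcripts, and its value does not separate the alpha and beta forms of ChREBP. By the study's qRT-PCR, feeding induced the beta form in control livers and left the alpha form unaffected. The 2 Insig genes, whose proteins hold SREBP in the endoplasmic reticulum, went opposite ways. Insig1 rose by 0.82 (adjusted p = 0.0232), a call lost without either fasted control replicate or the second fasted MED13-LKO replicate (adjusted p up to 0.0707), while Insig2, known as the fasting isoform, fell by 0.59 from 2072 to 2422 to 1236 to 1917. Ppargc1b, a coactivator of SREBP, fell by 0.91 (adjusted p = 0.0124, and 0.0531 without the second fasted control replicate). Without the first fasted control replicate, or without the second fasted MED13-LKO replicate, 3 members were called higher. Without the second fasted control replicate 1 was called lower, and without the second fasted MED13-LKO replicate 2 were.

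The genes of triglyceride synthesis and lipid droplets did not move together. Of 18 tested, 2 rose and 4 fell. Lpin1 and Lpin2, phosphatidate phosphatases, fell by 1.56 and 1.72 on the log2 scale. Lpin2 went from 8483 to 13924 in the fasted livers to 2268 to 5244 in the fed livers (3.3-fold, adjusted p = 7.11e-06). Pnpla2, the adipose triglyceride lipase, fell by 0.84 and Plin5, a droplet protein of oxidative tissues, by 0.89, while G0s2, the inhibitor of that lipase, rose by 1.3 ± 0.225. Over both genotypes G0s2 overlapped between the groups (225.9 to 2012 fasted, 744.4 to 3250 fed) and was not called with no genotype covariate (adjusted p = 0.145). It was higher in MED13-LKO than in control livers by 1.7 (limma, adjusted p = 0.000103). Control livers stood at 225.9 and 409.2 fasted and 744.4 to 1132 fed. MED13-LKO livers stood at 876.4 and 2012 fasted and 2280 to 3250 fed. Within genotypes the rise was called in control (1.61) and not in MED13-LKO livers (0.98, adjusted p = 0.0775). Agpat2, an acyltransferase, rose by 0.43.

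Of 23 genes of cholesterol synthesis and SREBP2 targets, 5 rose and 1 fell. Mvd, which decarboxylates mevalonate diphosphate, rose 2.43-fold, and Stard4, a cholesterol carrier, rose 1.42-fold. Sc5d, a sterol desaturase, was also called higher. The count of members called higher was 10 without the second control fructose replicate and 3 without the second fasted MED13-LKO replicate. The member called lower, Tm7sf2, a sterol reductase, changed by -0.25 and was not called when any of 9 libraries was left out.

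Of 18 genes of glycolysis and fructolysis, 7 rose and 2 fell. Pklr, the liver pyruvate kinase and a classical ChREBP target, ranged from 1502 to 2695 in the fasted livers and from 4558 to 18792 in the fed livers, with a median of 7979. The groups did not overlap, and the rise was 3.77-fold (log2 1.91 ± 0.285, adjusted p = 0.000612), although 21.1% of its 31-base stretches occur elsewhere. Enzymes of the fructose pathway were among those that rose. Khk, the ketohexokinase that phosphorylates fructose, rose 1.62-fold (adjusted p = 0.00338), and Tkfc, which phosphorylates glyceraldehyde, rose 2.68-fold. Gpi1 and Eno1, enzymes shared with glycolysis, rose 1.79-fold and 1.47-fold, and Gapdh was also called higher.

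Pfkfb1, the bifunctional enzyme that sets fructose 2,6-bisphosphate, fell by 0.37 (adjusted p = 0.0296) and Pfkfb2 was the other member called lower. The call of Pfkfb1 was lost without the second fasted control replicate or the first fasted MED13-LKO replicate (adjusted p up to 0.116), and that of Pfkfb2 without the former.

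In the pentose phosphate pathway and NADPH supply, 3 of 9 genes rose and 1 fell. Pgd, which makes NADPH, rose 2.01-fold (adjusted p = 0.0038), Tkt, the transketolase, rose 1.39-fold (adjusted p = 0.0234), and Rpia has been given above. The first control sucrose replicate held the highest fed value of Pgd and Tkt, at 2060 and 1586. Tkt was not called without either fasted control replicate (adjusted p = 0.083 without replicate 1). H6pd, a hexose phosphate dehydrogenase of the endoplasmic reticulum, fell by 0.39.

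Among the glycogen genes, Ppp1r3g, a subunit that directs protein phosphatase 1 to glycogen, stood at 213.8 and 279.9 in the fasted control livers and at 6.177 and 18.51 in the fasted MED13-LKO livers. It is listed at 0 in 5 fed livers, and the others lay between 1.097 and 7.491. The fed livers therefore overlapped the fasted MED13-LKO livers but not the fasted controls, and Ppp1r3g passed the filter on low values only through those 2 control livers. The fitted difference of -5.03 (adjusted p = 0.00204) moved between -7.22 and -2.73 with the pseudocount. Another such subunit, Ppp1r3b, went the other way and rose 1.86-fold (adjusted p = 0.00825), and Pygl, the liver glycogen phosphorylase, rose 1.59-fold. Gys2, the liver glycogen synthase, changed by -0.11 ± 0.0742 and was not called. In all, 2 of 16 rose and 4 fell, of which the other 3 were Gyg, Phka2 and Gaa. The count of 4 was 1 without the first fasted control replicate and 2 without any of 5 other libraries.

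**Figure D3:**
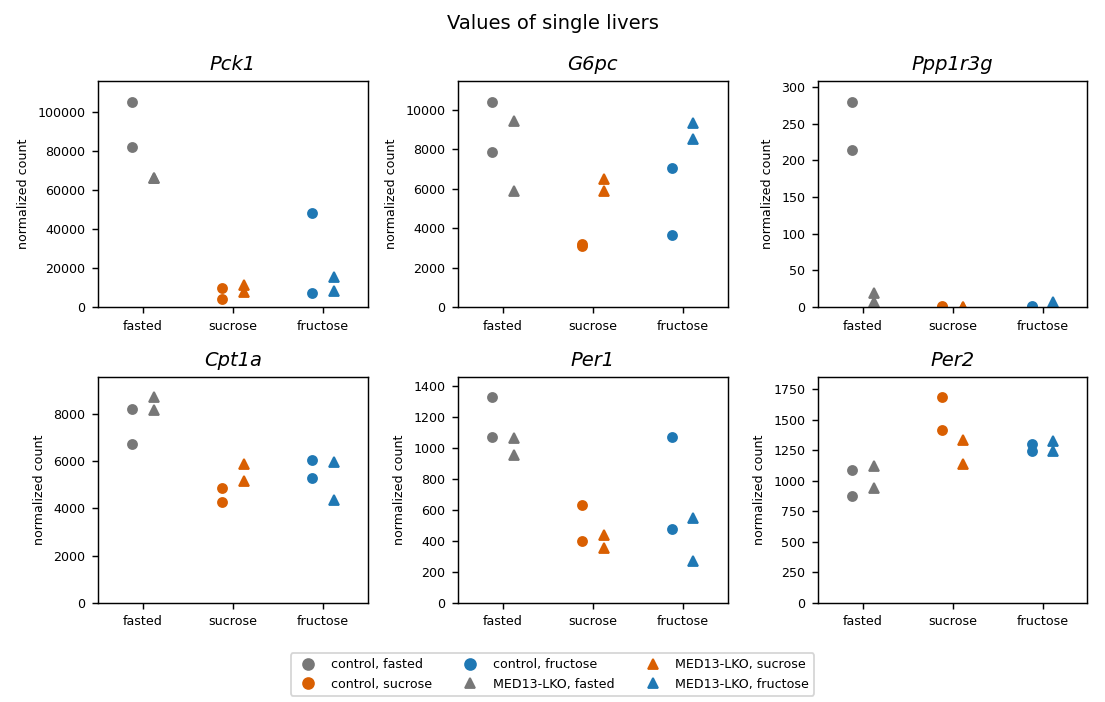
Normalized counts of 6 genes in single livers by diet, each on its own axis from 0, with circles for control and triangles for MED13-LKO. Pck1 and Cpt1a are lower in all fed livers, G6pc overlaps between fed and fasted livers, and Per1 and Per2 moved in opposite directions.

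Of the 14 genes of gluconeogenesis, 6 fell and 1 rose. After Pck1 the largest falls were those of Got1, the cytosolic aspartate aminotransferase, and Ppargc1a, the fasting coactivator of the pathway. Ppargc1a ranged from 369.8 to 481.7 in the fasted livers and from 128.4 to 297.6 in the fed livers and fell 2.15-fold (adjusted p = 0.000206). G6pc, the glucose-6-phosphatase that releases glucose, was not called (-0.59 ± 0.27, adjusted p = 0.141). Its values of 7865, 10424, 5887 and 9423 in the fasted livers overlapped those of 3077 to 9317 in the fed livers. Its change was -1.18 in control and -0.0039 in MED13-LKO livers (95% interval of the difference 0.21 to 2.15, adjusted p = 0.464), and it was called with sucrose (-0.9, adjusted p = 0.0422) and not with fructose (-0.29, adjusted p = 0.516), with a difference between the sugars that was not called (95% interval 0.021 to 1.2, adjusted p = 0.591). Over all fed livers the change was -0.37 without the second fasted control replicate (adjusted p = 0.423). It was -0.87 and called without the first fasted MED13-LKO replicate (adjusted p = 0.0413), and -0.59 and called with a model of 6 group means (adjusted p = 0.036). Pck1 and G6pc, which encode regulated enzymes at either end of the pathway, thus differed in their calls, and the difference between them was not tested. Gpt2, an alanine aminotransferase, fell by 0.36, and Crtc2 and Creb3l3 were the other members called lower. Fbp1, the fructose bisphosphatase, rose by 0.25 (adjusted p = 0.0275) and was not called without the second fasted replicate of either genotype (adjusted p up to 0.112).

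The list that moved most as a group was that of genes repressed by insulin or driven by FOXO factors. Of 16 tested, 13 fell and none rose, with a median change of -1.31, and in 12 of the 16 the fed and fasted livers did not overlap (8.8% of all genes). The count of 13 was the same whichever library was left out. Beside Igfbp1, Ddit4, Depp1 and Irs2, the genes of the factors themselves fell. Foxo1 ranged from 1355 to 1704 in the fasted and from 457.1 to 918.6 in the fed livers (2.56-fold lower, adjusted p = 2.46e-05), and Foxo3 fell 1.91-fold (adjusted p = 5.74e-05). Klf15, a factor that promotes amino acid catabolism, fell 2.44-fold, Ccng2, a cyclin, 2.76-fold, Fbxo32, a ubiquitin ligase subunit, 2.66-fold, and Pdk4, the kinase that shuts pyruvate dehydrogenase, 2.51-fold. Insr, the insulin receptor, fell by only 0.33 on the log2 scale, with every fed liver (1666 to 2263) below every fasted one (2274 to 2477). Sesn1, a stress-induced regulator of mTORC1, fell by 0.61.

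Of 27 PPAR alpha targets and ketogenic genes, 2 fell (7.41%, against 10.4% of all genes) and none rose, with a median of -0.086. Cpt1a, which admits fatty acids to the mitochondrion, ranged from 6754 to 8720 in the fasted and from 4270 to 6049 in the fed livers and fell 1.53-fold (adjusted p = 0.00142). Mlycd, which removes the malonyl-CoA that inhibits CPT1A, changed by -0.19 and was not called when any of 9 libraries was left out. Nor was it called by limma with the replicate number as a block, equal 75th percentiles or no genotype covariate (adjusted p = 0.052, 0.0541 and 0.218). Acadm, the medium-chain acyl-CoA dehydrogenase of mitochondrial oxidation, changed by -0.15 ± 0.1 and was not called (adjusted p = 0.317). Cyp4a14, a microsomal omega-hydroxylase, ranged from 4212 to 39370 in the fed livers alone, so that its change of -0.67 ± 0.489 had an adjusted p of 0.366. Some PPAR alpha targets stand on other lists and did not move together. Angptl4 and Pdk4 fell, G0s2 rose, and Fgf21 was not called.

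Amino acid catabolism fell broadly, in 20 of 33 genes tested, while 1 rose. Tat, the tyrosine aminotransferase induced by glucocorticoids and glucagon, stood at 97464 and 123400 in the fasted control livers and at 66664 and 62038 in the fasted MED13-LKO livers, and at 17264, 20906 and 30809 (lowest, median, highest) in the fed livers. Every fed value was below every fasted one, a 3.71-fold fall (log2 -1.89 ± 0.21, adjusted p = 7.8e-05). Sds, the serine dehydratase that makes pyruvate, fell 3.25-fold, and the importers Slc7a2, for cationic amino acids, and Slc38a2, for small neutral ones, fell 3.03-fold and 2.72-fold. Tdo2, which opens the ring of tryptophan, fell 1.86-fold.

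The urea cycle fell by less. Arg1, the arginase, fell 1.53-fold (adjusted p = 0.000249) without overlap of the groups. Cps1, Ass1 and Asl, which carry ammonia into the cycle and on to arginine, fell by 0.45 to 0.48 on the log2 scale, and in each the control fasted livers lay above the fed ones of both genotypes while the MED13-LKO fasted livers overlapped them. For Ass1, 43.1% of the 31-base stretches occur in other genes. Nags, which makes the activator of CPS1, rose by 0.17 and was not called when any of 10 libraries was left out. Its call was also lost in limma with the replicate number as a block, no filter on low values or no genotype covariate (adjusted p = 0.0595, 0.059 and 0.17). In serine, methionine and one-carbon metabolism 1 of 14 rose (Shmt1) and 1 fell (Ahcy), and the rise was not called when any of 8 libraries was left out.

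Of 28 genes of autophagy and the lysosome, 12 fell and none rose. Flcn and its partner Fnip1, which couple amino acids to the lysosome and to TFEB, fell 1.88-fold and 1.76-fold, with Flcn at 571.1 to 737.6 in the fasted and 290.1 to 402.6 in the fed livers (adjusted p = 9.48e-05). Gabarapl1 and Map1lc3b, which coat the autophagosome, fell 1.69-fold and 1.29-fold, and Atg14, which starts its membrane, fell 1.58-fold. In each of these 5 genes the groups did not overlap. That held for 7 of the 28, against 8.8% of all genes. Ulk1, the initiating kinase, changed by 0.3 ± 0.132 and was not called.

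Of 24 genes of folding and quality control in the endoplasmic reticulum, 13 rose and 1 fell. Hyou1 (0.95 ± 0.216, adjusted p = 0.00829), Manf (0.96 ± 0.217, adjusted p = 0.00797) and Pdia4 (0.92 ± 0.225, adjusted p = 0.0117), a chaperone, a secreted protective factor and a disulfide isomerase of that compartment, rose by like amounts. Hspa5, the chaperone BiP, ranged from 15414 to 27705 in the fasted and from 22715 to 63915 in the fed livers and rose 1.81-fold (adjusted p = 0.0225). Sdf2l1, a cofactor of BiP, rose by 1.03 ± 0.308 (adjusted p = 0.0316), and Xbp1, the factor spliced in response to unfolded protein, rose by 0.81 without overlap of the groups. Herpud1, a gene of the degradation pathway, went against the others and fell 2.06-fold, from 13776 to 17708 to 5249 to 11893. Most of these rises overlapped between groups, and the count of 13 was 6 without either fasted control replicate and 7 without the second fasted MED13-LKO replicate. Hspa5 was among those lost (adjusted p = 0.073 without the last), as was Sdf2l1 (adjusted p = 0.103), which was also lost without the first control sucrose replicate.

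Other stress genes did not move together. Of 11 genes of the integrated stress response, 4 fell and 2 rose. Trib3, an inhibitor of AKT induced by ATF4, fell 2.08-fold, and Sesn2, a leucine sensor, fell 1.99-fold. Ppp1r15a and Eif4ebp1 were the other 2 that fell. Nupr1, a stress-induced nuclear protein, rose by 1.09 ± 0.3 (adjusted p = 0.0217) and Ddit3, the factor CHOP, by 0.39 ± 0.11 (adjusted p = 0.0239). Neither was called without the first fasted MED13-LKO replicate. Nupr1 was also lost without the first fasted control replicate and Ddit3 without the second fasted MED13-LKO replicate, with adjusted p up to 0.0809. Atf4 itself changed by 0.25 ± 0.103 (adjusted p = 0.111). Asns, the asparagine synthetase, was not called. Its fasted levels were 396.7 and 161.2 in control and 9.938 and 14.96 in MED13-LKO livers.

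Of 17 cytosolic heat shock genes, 7 rose and none fell. Bag3, a cochaperone of HSP70, ranged from 373.2 to 494.7 in the fasted and from 738.6 to 1144 in the fed livers (1.96-fold, adjusted p = 0.000128), and Hsp90aa1 rose 1.49-fold, although 51.5% of its 31-base stretches occur in other genes. Of 29 genes of ribosome biogenesis, 9 rose and 1 fell. Bysl, Tsr1 and Rrp12, which act on the small subunit and its precursors, rose 1.61-fold, 1.62-fold and 1.51-fold without overlap of the groups. The groups did not overlap in 5 of the 29, against 8.8% of all genes. Npm1, a nucleolar chaperone, fell by 0.41 on the log2 scale.

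The clock genes differed between fed and fasted livers in 11 of 18 members, with 9 lower and 2 higher. Ciart, Usp2 and Per1 fell most. Per1, a repressor of the clock that also responds to glucocorticoids and glucagon, ranged from 954.3 to 1326 in the fasted livers and from 266.4 to 1066 in the fed livers, where only the second control fructose replicate, at 1066, reached the fasted range (2.27-fold, adjusted p = 0.00403). Ciart, which represses CLOCK and BMAL1, fell 2.31-fold, Usp2, a rhythmic ubiquitin protease, 2.04-fold, and Dbp, an output factor of the clock, 1.69-fold. Per2, the paralogue of Per1, rose 1.33-fold, with the fasted livers at 872.9 to 1119 and fed livers at 1135 to 1683. Arntl, the gene of BMAL1, changed by 0.13 ± 0.263 and was not called. Nr1d1, the repressor REV-ERB alpha, fell by 0.57 (adjusted p = 0.0213) and was not called without either fasted MED13-LKO replicate (adjusted p up to 0.086). The hour of collection moved with feeding in these mice, and its part in these differences cannot be told apart.

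Of 18 immediate early and growth arrest genes, 8 fell and 2 rose. Cdkn1a, the cell cycle inhibitor p21, stood at 60.8 and 70.83 in the fasted control livers, at 442.3 and 266 in the fasted MED13-LKO livers and at 8.382 to 74.81 in the fed livers, and fell by 2.23 on the log2 scale (adjusted p = 0.00143). The fed livers overlapped the fasted controls. Egr1, a growth factor response gene, fell 3.11-fold and Zfp36, which destabilises messenger RNA, fell 2.13-fold. Gadd45a, a DNA damage and growth arrest gene, rose 4.79-fold from 38.4 to 115.4 to 161.5 to 512.7 (adjusted p = 0.000362), and Atf3, a stress-induced repressor, rose 2.59-fold from low values of 13.09 to 17.04. Fos changed by -0.6 ± 0.409 and was not called.

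Of 21 secreted hepatokines, 4 rose and 4 fell, Angptl8 and Angptl4 among them. Inhbe, which encodes the liver's activin E subunit, ranged from 255.5 to 462.5 in the fasted and from 487.2 to 1058 in the fed livers (2.22-fold, adjusted p = 0.00119). Hamp, the iron hormone hepcidin, rose 2.26-fold (adjusted p = 0.0104), with 33.7% of its 31-base stretches shared, and Igfals was the last that rose. Gdf15, a stress hormone, fell by 0.62 (adjusted p = 0.03) and was not called when any of 3 libraries was left out, the second fasted control, the second fasted MED13-LKO or the first MED13-LKO sucrose replicate. Igfbp4 and Fetub were the other 2 that fell. Fgf21, a hormone induced by fasting and by sugar, was not called over both genotypes (1.6 ± 0.594, adjusted p = 0.0758). It stood at 1.126 and 4.815 in the fasted control livers and at 50.65 and 34.41 in the fasted MED13-LKO livers, against 16.56 to 90.18 in the fed livers.

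Of 18 genes of bile acid synthesis and transport, 6 fell and 1 rose. Abcg8 and Abcg5, the paired subunits of the canalicular sterol exporter, fell 2.2-fold and 1.64-fold. Nr0b2, the bile acid-induced repressor SHP, fell 2.19-fold, from 391.4 to 791.2 to 169.8 to 366, and Cyp27a1, of the acidic pathway, fell 1.38-fold. Cyp7a1, the rate-limiting enzyme of the classical pathway, changed by 0.33 ± 0.258 and was not called. It stood at 10085 and 10134 in the fasted control livers and at 3638 and 2489 in the fasted MED13-LKO livers. The member that rose was Nr1h4, the bile acid receptor FXR, which was not called when any of 8 libraries was left out or with the replicate number as a block.

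Markers of the liver's cell types were checked as a measure of composition. In bulk RNA, fewer cells of a type and less RNA per cell cannot be told apart. For the markers too, the reference shares are 9.74% of genes called higher and 10.4% called lower. The 9 hepatocyte markers summed to 2613000 to 3500000 in the fasted and 2201000 to 3115000 in the fed livers. Of these, 4 were called lower (Hnf4a by 0.29, and Ass1, Cps1 and Cyp2e1) and none higher. Ass1 and Cps1 are also the urea cycle genes given above. None of the 11 Kupffer cell markers, 10 stellate cell markers, 4 cholangiocyte markers and 2 neutrophil markers tested was called in the fed comparison by limma, with sums of 6191 to 8051 against 4866 to 8351 for the Kupffer cells and 8180 to 9387 against 7644 to 9186 for the stellate cells. Of the 10 markers of sinusoidal endothelium, 4 fell, by at most 0.4 (Oit3, then Clec4g), and their sum was 7629 to 10120 in the fasted and 6555 to 8281 in the fed livers. Only 2 of those 4 were called without the second fasted MED13-LKO replicate. The red cell genes Hbb-bs and Hbb-bt fell by 0.58 and 0.65 (adjusted p = 0.0258 and 0.0267), with over 50% of their sequence shared, and the 5 red cell markers summed to 10100 to 14900 in the fasted and 5734 to 12280 in the fed livers. Neither was called without the first fasted control replicate or either fasted MED13-LKO replicate, and 4 of the 5 were called without the second fasted control or the second MED13-LKO sucrose replicate. Lymphocyte markers summed to 15.91 to 55.27, and none reached the filter. The part of these shifts in the results above was not tested.

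The response to feeding was then fitted within each genotype, in libraries that the other fit did not use. In control livers 655 genes were called (5.3%), 363 higher (2.94%) and 292 lower (2.36%), and in MED13-LKO livers 1059 (8.56%), 446 higher (3.61%) and 613 lower (4.96%). The lists shared 301 genes, which is 46% of the control list and 28.4% of the MED13-LKO list, and all 301 moved in the same direction (131 higher, 170 lower). Of the genes called in control livers 96.2% had the same sign in MED13-LKO livers, and of those called in MED13-LKO livers 93.4% had the same sign in control livers, against 68.7% of all genes tested. The median size of the change in the genes called in control livers was 0.83 in control and 0.53 in MED13-LKO livers. In the genes called in MED13-LKO livers it was 0.67 in those and 0.47 in control livers. Both counts depended on single libraries. In control livers, 28 genes were called higher and 23 lower without the first fasted replicate, 27 and 8 without the second, 163 and 130 without the first sucrose replicate, and 108 and 94 without the second. In MED13-LKO livers, 113 and 169 were called without the first fasted replicate, 91 and 141 without the second, 261 and 404 without the first sucrose replicate, and 223 and 403 without the second.

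**Figure D4:**
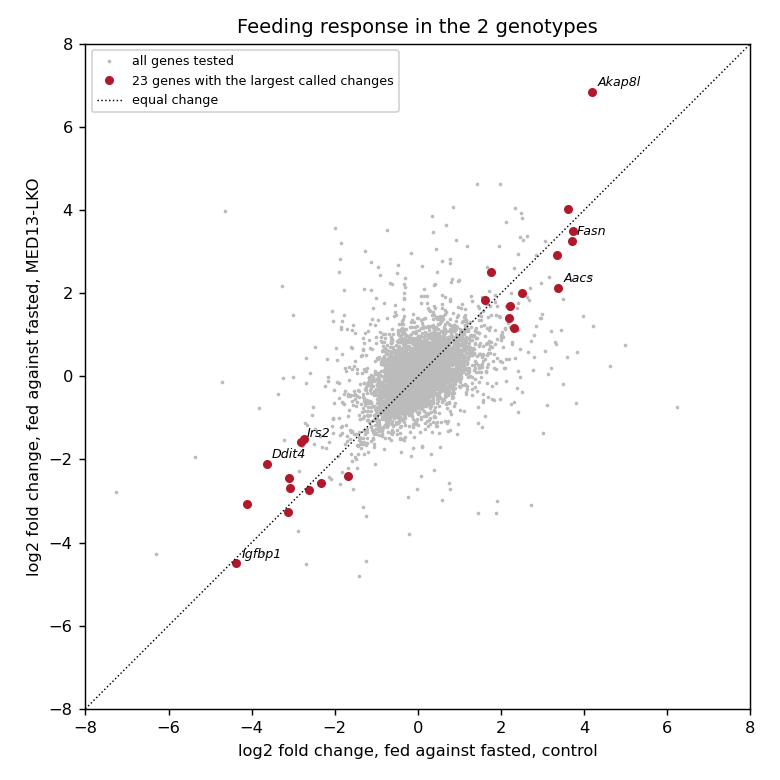
Each point is a gene, with its log2 fold change between fed and fasted livers in control mice on the horizontal axis and in MED13-LKO mice on the vertical axis, and the dotted line marks equal change. Grey points are the 12366 genes tested and red points 23 with the largest called changes, whose like sign in both genotypes follows from the rule that chose them. Over all genes 68.7% had the same sign.

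No gene passed the test of the difference between these responses (genotype by feeding interaction, limma, lowest adjusted p = 0.136, 1060 genes at an unadjusted p under 0.05). Up to 3 genes passed in a direction when single libraries were left out. In data simulated on these libraries the same test called 46.3% of interactions of 1 and 69.7% of interactions of 2 on the log2 scale. The simulation changed 200 genes and held no difference between the sugars and no other effect of feeding, so its shares may not hold for these data. In that setting smaller differences were mostly not detectable. For Fasn the response was 3.7 in control and 3.27 in MED13-LKO livers, and the 95% interval of the difference ran from -1.95 to 1.08. For Igfbp1 it was -4.38 and -4.49, with an interval from -1.91 to 1.69, and for Klf15 it was -1.3 and -1.28, with an interval from -0.53 to 0.55. In Got1 and Plin5, whose intervals left out 0, the fasted levels of the genotypes stood apart. Got1 stood at 8213 and 7263 in fasted control and at 2198 and 2610 in fasted MED13-LKO livers, and at 1435 to 2716 in all fed livers, so that it fell by 1.88 in control and 0.52 in MED13-LKO livers (interval of the difference 0.74 to 1.97, adjusted p = 0.223). Plin5 showed the opposite order, at 844.8 and 1159 in fasted control and 2302 and 2071 in fasted MED13-LKO livers against 661.8 to 972.1 in the fed livers (interval -1.38 to -0.5, adjusted p = 0.223). In both genes the fed livers of the genotypes overlapped. Ddit4 fell by 3.64 in control and 2.1 in MED13-LKO livers (interval 0.48 to 2.61), Irs2 by 2.8 and 1.58 (0.26 to 2.19) and Arl4d by 2.75 and 1.5 (0.41 to 2.1), with adjusted p of 0.412, 0.455 and 0.397. In the list of amino acid catabolism, 13 of 33 members had an unadjusted interaction p under 0.05, against 1060 of all 12366 genes, and none was called.

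The sugars were compared with each other over both genotypes, in a fit of genotype and diet that also held the fasted libraries. Against the fasted livers, which both comparisons share, 1973 genes were called with sucrose (16%), 952 higher (7.7%) and 1021 lower (8.26%), and 1931 with fructose (15.6%), 902 higher (7.29%) and 1029 lower (8.32%). The count called higher with sucrose was 629 without the second fasted control replicate, 618 without the first control sucrose replicate and 620 without the second, and the counts with fructose were 555 and 639 without the second fasted control replicate and 528 and 627 without the second MED13-LKO fructose replicate. No gene passed the limma test of fructose against sucrose (lowest adjusted p = 0.0635, 1015 genes at an unadjusted p under 0.05). With a model of 6 group means 1 gene was called higher with fructose and 4 lower, and up to 2 were called lower when a library was left out. The size of difference that this test can detect was not simulated, so a missing call does not show that the sugars act alike. The estimate was lower with fructose than with sucrose in 14 of the 15 lipogenic genes, 7 of them with an unadjusted p under 0.05, and in 6320 of the 12366 genes tested. Of the 11 Kupffer cell markers none was lower with fructose and none was called, 8 had an unadjusted p under 0.05, and they summed to 4866 to 6383 in the sucrose and 5797 to 8351 in the fructose livers. Their part in the differences between the sugars was not tested. Fasn rose by 3.91 with sucrose and 3.06 with fructose, and fructose lay 0.86 ± 0.32 below sucrose (95% interval -1.56 to -0.16, adjusted p = 0.535). Pklr rose by 2.42 with sucrose and 1.41 with fructose, and the difference of -1.01 ± 0.178 (interval -1.4 to -0.62) had an adjusted p of 0.375. For Me1 the difference was -0.77 (interval -1.21 to -0.33) and for Tkfc -0.51 (interval -0.84 to -0.18). The falls did not differ by this test either. Pck1 fell by 3.33 with sucrose and by 2.43 with fructose (interval of the difference -0.19 to 1.99), and without the second control fructose replicate, the fed liver with the highest Pck1, the test of the sugars again called no gene.

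**Figure D5:**
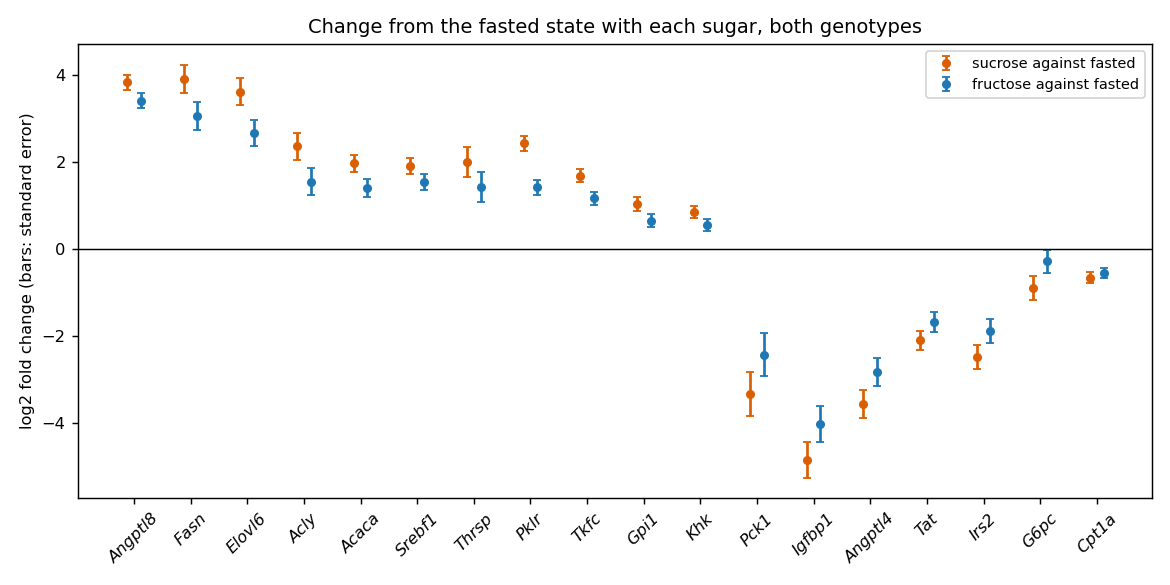
Log2 fold change from the 4 fasted livers for 18 genes with sucrose (orange) and fructose (blue), 4 livers each, with bars of 1 standard error. The points for sucrose lie farther from 0 than those for fructose in the genes called in the feeding comparison, and none of these differences passed the adjusted test.

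The promoters of 3 of the genes described above are shown because each holds several matches to an element bound by factors of the feeding response, and they were chosen after the matches were seen. They run from 250 bases before to 50 after the start in RefSeq (GRCm38.p6), 5′ to 3′ on the gene's strand, for Fasn at chr11:120824498-120824797 (minus), Hspa5 at chr2:34771840-34772139 (plus) and Klf15 at chr6:90462326-90462625 (plus). Capitals mark the CCAAT box on either strand, bound by NF-Y beside SREBP at lipogenic genes and beside ATF6 at chaperone genes, in the first 2, and the E-box CACGTG, bound by clock factors, USF and TFE3, in the third.

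Fasn: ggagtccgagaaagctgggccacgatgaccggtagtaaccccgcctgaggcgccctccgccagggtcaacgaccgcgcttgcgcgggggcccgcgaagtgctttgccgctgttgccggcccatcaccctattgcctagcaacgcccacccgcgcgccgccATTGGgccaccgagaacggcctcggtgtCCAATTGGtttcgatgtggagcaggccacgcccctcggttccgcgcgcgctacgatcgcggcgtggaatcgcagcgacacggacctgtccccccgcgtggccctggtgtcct
Hspa5: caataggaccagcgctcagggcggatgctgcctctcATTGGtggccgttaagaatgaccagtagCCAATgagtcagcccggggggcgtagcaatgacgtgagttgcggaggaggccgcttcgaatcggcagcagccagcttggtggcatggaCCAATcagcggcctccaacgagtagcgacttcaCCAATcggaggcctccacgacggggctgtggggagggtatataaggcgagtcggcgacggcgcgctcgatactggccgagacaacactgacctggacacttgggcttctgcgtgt
Klf15: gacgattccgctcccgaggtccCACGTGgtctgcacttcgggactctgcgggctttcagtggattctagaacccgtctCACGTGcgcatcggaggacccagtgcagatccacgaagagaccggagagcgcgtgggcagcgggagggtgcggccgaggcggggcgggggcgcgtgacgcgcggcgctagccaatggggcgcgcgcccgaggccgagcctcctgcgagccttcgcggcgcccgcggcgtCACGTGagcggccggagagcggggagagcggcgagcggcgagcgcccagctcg

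Fasn held 3 CCAAT boxes, 2 of them overlapping on opposite strands, and rose 11.2-fold. Hspa5 held 4 and rose 1.81-fold, with a call that depended on single libraries. Klf15 held 3 E-boxes and fell 2.44-fold. Promoters were matched for 9618 of the 12366 genes. The CCAAT box (CCAAT, both strands) was present in 42.9% of all of them, in 48% of those of genes called higher and in 45.9% of those called lower. CACGTG was present in 11.6% of all, in 12.8% of those called higher and in 12.9% of those called lower. The FOXO site GTAAACA was present in 3.26% of all, in 3.06% of those called higher and in 5.5% of those called lower. Among genes that changed by more than 1, CCAAT was in 53.7% of those higher and 46.2% of those lower, CACGTG in 5.69% and 17.3%, and GTAAACA in 4.07% and 2.88%. The sterol element TCACNCCAC was present in 1.46% of all and in 1.69% and 1.9% of those called higher and lower. TCACGTGA, which contains CACGTG, was present in 2.18% of all and in 1.79% and 2.1%. The ATF4 site TGATGNAAT was present in 0.613% of all and in 0.949% and 0.6%, and the PPAR element was in 5 promoters, none of them of a called gene. These shares are descriptions of 300-base windows and were not tested.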

How the data were processed

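Liver RNA of 12 samples, in 6 groups of 2, was sequenced by the study. Per the labels, the authors trimmed reads with Trim Galore 0.6.5, quantified transcripts with kallisto 0.46.0 on mm10 and normalized with DESeq2 1.24.0. The deposited values are gene-level signal, estimated counts divided by a size factor for each library by the authors. They are not counts, and 1 read came out as a whole step, within 0.05 of a whole number, for only 51.9% to 58.9% of low values over all genes, so no count test was run. Of 16346 genes, 16222 were found in GENCODE M21 (GRCm38), which gave coordinates and the share of 31-base stretches found in other genes.

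Genes with a mean of at least 10 were fitted as log2(value + 1) with limma 3.58.1 in R 4.3.3 (lmFit and eBayes with a trend), and p-values were adjusted by Benjamini-Hochberg over the 12366 genes of each comparison at 0.05. The feeding model held genotype and feeding over all 12 libraries. Responses within a genotype used its 6 libraries, and the interaction added a term to the feeding model. The sugars were fitted as diets (fasted, sucrose, fructose) over all 12 libraries with genotype as a covariate. A pseudocount of 0.1 or 10, no filter, equal 75th percentiles, a replicate block, 6 group means, no genotype covariate, robust moderation, a single fit of both genotypes and leaving out each library were tried as alternatives. On simulated data with 200 changed genes the feeding model called 58.2%, 88.1% and 97% of changes of 0.5, 1 and 2 on the log2 scale, and 6.9% of its calls were false. The simulated data held no difference between the sugars and fewer changed genes than were called here.

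Named genes were the 12 called higher and the 12 called lower that changed most among protein-coding genes with a mean of at least 50, no overlap between the 8 fed and 4 fasted libraries and under 10% shared 31-base stretches, and members of the lists. A gene of that rule and some list members are not reported here, though the counts include them. Where a list had 5 or fewer calls, further members were named after their values were seen. The comparison and the gene lists were chosen with earlier results of these data known. Libraries of a group correlated at 0.964 to 0.979 on the log2 scale, and none were duplicates. Python 3.11.15, pandas 2.3.3, NumPy 2.4.6 and matplotlib 3.10.9 made the tables and figures.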

Additional observations from a re-analysis of the deposited data

Results flagged for a closer look

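For the genes named above, 276 sets of 4 fasted or 8 fed libraries were examined for a library that lay far from the others of its set, and 12 were found. Chance alone picks out about 1 such set in 20, and the sets hold both genotypes and both sugars. Among the fasted libraries, Akap8l was 14.46 in the second control replicate against 0 in the others, Rpia was 37.01 in the second control replicate against 59.95 to 63.93, and Foxo3 was 1379 in the first control replicate against 1681 to 1740. Hbb-bt was 1101 in the first control replicate against 646.5 to 686.8. In the fasted MED13-LKO replicates, Ip6k2 was 181.8 in the first against 296.2 to 312.5, Pklr was 1502 in the second against 2516 to 2695, and Sesn1 was 450.8 in the second against 352.2 to 365.1.

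Among the fed libraries, the first control sucrose replicate had the highest Pgd, at 2060 against 769.2 to 1047, the highest Tkt, at 1586 against 821 to 994.8, and the lowest Akap8l, at 35.04 against 74.23 to 134.9. Angptl8 was lowest in the second control fructose replicate, at 2589 against 3825 to 5360. Dbp was lowest in the second MED13-LKO fructose replicate, at 296.4 against 563.4 to 989.9.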

How the results depend on the processing

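The feeding comparison was refitted under 20 other settings, 12 of which left out a library. None of the 124 named genes that were called changed direction under any of them, and 94 kept the call under all. Of the 30 that lost it under at least 1 setting, 27 lost it with no genotype covariate, which left 734 genes called higher and 780 lower. Leaving out a library gave 801 to 1259 higher and 868 to 1302 lower. Within control livers, 141 higher and 127 lower were called with no filter on low values and 630 and 602 in a single fit of both genotypes, and leaving out a library gave 27 to 373 and 8 to 326. Within MED13-LKO livers, 274 were called higher with no filter, and leaving out a library gave 91 to 330 higher and 141 to 471 lower. The interaction called 1 gene higher with a pseudocount of 10, and 0 to 3 higher and 0 to 3 lower without single libraries. Fructose against sucrose called 1 gene higher and 4 lower with 6 group means, and 0 higher and 0 to 2 lower without single libraries. Against fasted livers, leaving out a library gave 618 to 1016 higher and 698 to 1097 lower with sucrose, and 528 to 906 and 627 to 1041 with fructose. The causes were not tested. Replicate numbers did not pair the samples: none of 15 pairs of same-numbered libraries of different groups correlated over 0.1 in their deviations from the group means (-0.142 to 0.0782), and the fit with the number as a block called 1163 higher and 1231 lower. With 2 libraries a group, changes of 0.5 were often not detectable within a genotype, where 31.3% (control) and 14.9% (MED13-LKO) of simulated ones were called.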
